A study of Mus musculus with 7 samples.

Results

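The genes examined here encode 8 transcription factors of the pluripotency network: Pou5f1, Nanog, Sox2, Klf4, Klf2, Esrrb, Sall4 and Prdm14. The set is a list of known factors that uses no measured value, and it makes up 8 of the 20665 autosomal protein-coding genes, and of the 49943 RefSeq genes on chromosomes 1 to 19, X and Y, that could be measured. The histone mark H3K4me1 was read over each gene with 2.5 kb on each side, called its window, and in 10 kb bins over the next 100 kb on either side, called its flanks.

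The series holds 7 samples of mouse zygotes, the fertilised egg before its first division, made with an assay that reads a histone mark by CUT&Tag and the transcriptome in the same cell. In CUT&Tag an antibody brings the transposase Tn5 to a chromatin mark, and the cut fragments next to it are sequenced. The measurements are from the 2 H3K4me1 samples, labelled untreated, which are batches of zygotes from 1 mouse each. Their labels state no strain, age, genotype, mating, hormone treatment, collection time or removal of cumulus cells, which are stated only for some of the other samples. Hormone doses and collection time are stated only for the H3K27me3 samples and the transcriptome sample made with them. The 2 H3K27me3 samples and the 3 transcriptome samples were not used here.

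H3K4me1 marks enhancers, both those in use and those held ready, and the flanks of active promoters, while the nucleosomes right at an active promoter usually carry H3K4me3 instead. Pou5f1, Sox2 and Nanog bind shared sites in the inner cell mass and in embryonic stem cells, sustain their own genes and those of the other factors, and rely on enhancers both near to and far from their genes. Klf2, Klf4 and Esrrb belong to the naive part of the network, which LIF signalling and blocked MEK signalling sustain in culture, Sall4 is a zinc finger cofactor of Pou5f1, and Prdm14 represses lineage genes and DNA methyltransferases and is needed in germ cells. In the mouse zygote the egg's own RNA and protein still dominate and most of these genes are not yet used at full strength, so the mark was read before the enhancers of the later embryo act.

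The promoters show how differently the members are built, and the sequence just before the start was printed for the 5 members that held a motif marked below. RefSeq sequence (GRCm38.p6, the assembly of mm10) was at hand for Pou5f1, Nanog, Sox2, Klf4, Klf2 and Esrrb, and each stretch is the 250 bases before the gene's outermost start, 5′ to 3′ on the strand of the gene. The stretches lie at chr6:122707239-122707488 on the plus strand for Nanog, chr3:34649745-34649994 on the plus strand for Sox2, chr17:35505782-35506031 on the plus strand for Pou5f1, chr4:55532476-55532725 on the minus strand for Klf4 and chr8:72318812-72319061 on the plus strand for Klf2. In the first pair, capitals mark TTTGCAT or its complement, part of the octamer that POU factors such as Pou5f1 bind, and CATTGT or its complement, a core bound by SOX factors such as Sox2.
Nanog: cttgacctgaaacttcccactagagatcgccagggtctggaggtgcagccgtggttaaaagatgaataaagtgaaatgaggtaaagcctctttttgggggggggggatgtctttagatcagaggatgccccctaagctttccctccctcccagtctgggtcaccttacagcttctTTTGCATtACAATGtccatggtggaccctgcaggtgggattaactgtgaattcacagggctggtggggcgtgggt
Sox2: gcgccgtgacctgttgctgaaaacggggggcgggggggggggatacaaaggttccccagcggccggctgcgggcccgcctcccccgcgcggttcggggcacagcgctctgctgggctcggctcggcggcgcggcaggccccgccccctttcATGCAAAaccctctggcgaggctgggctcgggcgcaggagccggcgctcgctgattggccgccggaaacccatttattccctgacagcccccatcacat
In the next 3, capitals mark GGGCGG or its complement, the GC box bound by SP and KLF factors.
Pou5f1: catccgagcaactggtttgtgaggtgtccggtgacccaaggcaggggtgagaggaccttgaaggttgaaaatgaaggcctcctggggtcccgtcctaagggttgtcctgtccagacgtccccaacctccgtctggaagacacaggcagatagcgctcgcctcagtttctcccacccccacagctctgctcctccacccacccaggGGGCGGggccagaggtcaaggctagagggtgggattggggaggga
Klf4: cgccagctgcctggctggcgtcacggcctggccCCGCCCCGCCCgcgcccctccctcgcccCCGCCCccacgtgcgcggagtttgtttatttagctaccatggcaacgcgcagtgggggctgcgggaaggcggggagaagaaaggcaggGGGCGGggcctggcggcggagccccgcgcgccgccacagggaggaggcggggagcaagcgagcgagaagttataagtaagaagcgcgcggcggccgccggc
Klf2: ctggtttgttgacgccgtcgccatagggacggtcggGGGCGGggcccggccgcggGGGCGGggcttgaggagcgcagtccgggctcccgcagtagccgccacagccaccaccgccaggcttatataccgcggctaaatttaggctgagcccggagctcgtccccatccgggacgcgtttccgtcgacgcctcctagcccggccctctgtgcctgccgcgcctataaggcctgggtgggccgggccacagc

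Motifs were searched on both strands, and overlapping matches were each counted. In Nanog the POU letters began at -75 from the start and the SOX letters at -67, with 1 base between them. This order, TTTGCATNACAATG, was found at 2 of 32851 start sites in the RefSeq table, which covers 27025 genes, and both sites were starts of Nanog whose stretches overlap. The POU letters alone were in 4.12% of the start sites and the SOX letters in 10.7%. Sox2 held the POU letters at -99, without the SOX letters. The GC box was in 32.7% of the start sites, 4 times in Klf4, 2 times each in Klf2 and Sox2, and 1 time in Pou5f1. The Esrrb stretch held none of the 3 motifs, which says only that these letters are not in this window.

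The 250 bases also differed in their CG dinucleotides, where DNA methylation is placed. Klf4 had 32 CG, Klf2 had 29 and Sox2 had 27, against a median of 6 over all start sites. Pou5f1 had 8, Esrrb had 6 and Nanog had 3. The share of G and C bases followed the same split, with 74% in Klf4, 72% in Sox2 and 71.2% in Klf2, 62% in Pou5f1, 60.8% in Esrrb and 52% in Nanog. The Klf4, Klf2 and Sox2 promoters thus had many more CG than the median start site, Pou5f1 and Esrrb were close to it, and Nanog was under it.

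The deposited H3K4me1 table pooled both batches, and the labels tie no library to a batch. Its 14 libraries with 5000 or more fragments, each taken as 1 zygote, were counted together as 1 sample of 1404305 fragments, with 7106 to 197312 fragments a library and a median of 96240. Libraries are named by the numbers in the table, as in 5-4: 3 are named 4 (252571 fragments) and 11 are named 5 (1151734 fragments). A level is a region's fragments per base divided by the autosomal mean, 5.62 fragments per 10 kb, so that a level of 1 is the autosomal mean. Ranges in parentheses are exact 95% intervals for counting error only, and no interval, p-value or SD was available for the spread between mice. No untagged or control-antibody sample was used here, so the level of unspecific fragments is unknown.

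At the 8 genes the mark had its highest levels over Nanog (2.49), Klf4 (1.89) and Esrrb (1.83), followed by Pou5f1 (1.46). Sall4, Prdm14 and Klf2 were close to the autosomal mean, and Sox2, with 1 fragment, was lowest. The intervals of Nanog and Esrrb lay wholly above 1, which is 2 of 8 members or 25%. The same call was made for 29.5% of all autosomal protein-coding genes, so the share among the members was near that of other genes. None of the 8 intervals lay wholly below 1, against 7.17% of all genes. The median level of the members was 1.22, against 1.21 for all autosomal protein-coding genes, whose quartiles were 0.835 and 1.67. The 8 genes as a set therefore did not stand out at this depth. Levels differed between the members, but most of their intervals overlapped.

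**Figure D1:**
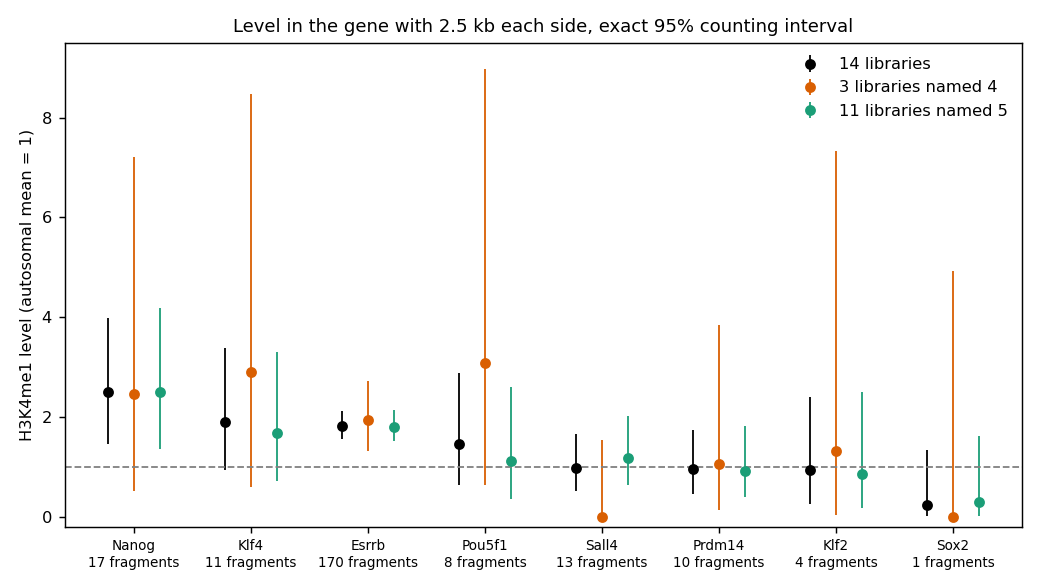
Level of H3K4me1 over each of the 8 genes with 2.5 kb on each side (points), as fragments per base over the autosomal mean (dashed line), with exact 95% counting intervals (lines), for all 14 libraries (black), the 3 named 4 (orange) and the 11 named 5 (green). In the 14 libraries, Nanog at 2.49 and Esrrb at 1.83 have intervals above 1, and Sox2 lies lowest at 0.238.

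Short genes hold few fragments: 7 of the 8 windows were no longer than 30 kb and held 64 fragments in all. Over these 7 genes the summed level was 1.27 (0.976 to 1.62), and over all 8, with 234 fragments, 1.63 (1.43 to 1.85). Of autosomal protein-coding genes with windows up to 30 kb, 23.1% had an interval above 1 and 4.34% below it. In this length class 1 of 7 members, Nanog, had an interval above 1. Among the 28 pairs of members, intervals did not overlap in 2, Nanog with Sox2 and Esrrb with Sox2. The intervals of all other pairs overlapped, which does not by itself show that their levels are alike. Ratios between members were not computed.

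Nanog, the homeobox factor that stabilises the pluripotent state, is RefSeq gene 71950 at chr6:122707489-122714633 on the plus strand. Its window held 17 fragments from 7 of the 14 libraries: 5 from 5-5, 3 each from 4-5 and 5-6, 2 each from 5-3 and 5-4, and 1 each from 5-7 and 5-10. The other 7 libraries had none, so the signal was spread over many zygotes with 29.4% from library 5-5. The level was 2.49 (1.45 to 3.99), above that of 94.9% of autosomal protein-coding genes. Libraries named 4 gave 2.47 (0.508 to 7.20) and those named 5 gave 2.5 (1.36 to 4.19). Without library 5-5 the level was 1.90 (0.982 to 3.32), and the interval then included 1.

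Within the Nanog window the fragments lay toward the 3′ end of the gene and not at its promoter. The 3′ part of equal length, chr6:122711062-122714633 held 10 fragments from 5 libraries, a level of 4.98 (2.39 to 9.16). The 5′ part, chr6:122707489-122711061, held 2 fragments, a level of 0.996 (0.121 to 3.60). The 2.5 kb before the start held 1 fragment and the 2.5 kb after the end held 4, with a level of 2.85 (0.776 to 7.29). The intervals of the 5′ and 3′ parts overlapped. The printed promoter stretch with the POU and SOX letters held 0 fragments, and 1 fragment lay within 1 kb of the start. RefSeq lists 2 Nanog pseudogenes, which held 1 fragment in all, and whether reads were shared between copies was not tested.

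Esrrb, an orphan nuclear receptor that can replace Nanog's function in stem cells, is RefSeq gene 26380 at chr12:86361117-86521628 on the plus strand, and is by far the longest member at 160.5 kb. All 14 libraries had fragments in its window, from 1 to 23 with a median of 13, and 170 in all. In each of the 14 libraries the level was above 1. Among the 13 libraries with more than 20000 fragments it ran from 1.25 in 5-6 to 3.37 in 5-1, with a median of 1.78. The pooled level was 1.83 (1.56 to 2.12), and the libraries named 4 gave 1.93 (1.32 to 2.72) against 1.81 (1.52 to 2.13) for those named 5. Leaving out each library in turn gave 1.76 to 1.91, and each of these intervals stayed above 1.

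Because a long gene has a narrow interval, Esrrb was also set beside genes of similar length. Of 1756 autosomal protein-coding genes with windows of 100 to 250 kb, a class chosen after the Esrrb level was seen, 45.5% had an interval above 1 and the median level was 1.18. Esrrb was above 91.7% of them by level. Along the gene, 4 stretches of 10 kb counted from the start had intervals above 1. The highest, 20 to 30 kb into the gene (chr12:86381117-86391116), held 19 fragments from 9 libraries and had a level of 3.38 (2.04 to 5.28). The stretch at 100 to 110 kb had a level of 2.67 (1.49 to 4.40), and those at 80 to 90 kb and 120 to 130 kb had 2.31 (1.23 to 3.96) each. The first 10 kb had 1.25 (0.501 to 2.57), lower by level than these 4 stretches, but its interval overlapped theirs. Before the start, the step from -2 to -1 kb held 5 fragments, a level of 8.90 (2.89 to 20.8). This step, chosen after the values were seen, was the highest 1 kb step within 10 kb of the start in the 6 members with a known strand. In it, fragments of 487 and 491 bases from 5-5 nearly coincided, and whether they came from 1 molecule was not tested. Within 1 kb of the start there were 0 fragments. Exons and introns were not told apart here.

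**Figure D2:**
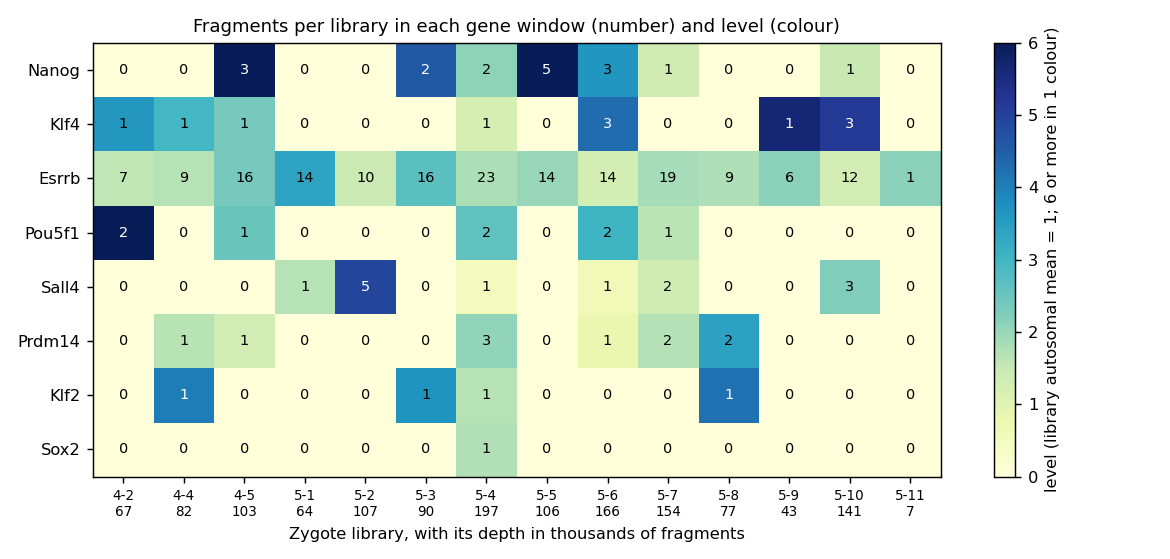
Number of H3K4me1 fragments in the window of each gene (rows) in each of the 14 zygote libraries (columns, with its depth under its name), coloured by the level in that library. Esrrb has fragments in all 14 libraries and Sox2 has 1 fragment, in library 5-4.

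Klf4, a zinc finger factor of the reprogramming set, is RefSeq gene 16600 at chr4:55527137-55532475 on the minus strand. Its window held 11 fragments from 7 libraries: 3 each from 5-6 and 5-10 and 1 each from 4-2, 4-4, 4-5, 5-4 and 5-9. The level was 1.89 (0.945 to 3.39), above that of 83.3% of autosomal protein-coding genes, and the interval just included 1. Libraries named 4 gave 2.90 (0.597 to 8.46) and those named 5 gave 1.68 (0.723 to 3.30). With 1 kb on each side of the gene in place of 2.5 kb the level was 2.42 (1.16 to 4.46), and the interval then lay above 1. It also did so without library 5-2 (2.05), 5-3 (2.02), 5-5 (2.05), 5-7 (2.13) or 5-8 (2.00), or with the median 10 kb bin as the reference (2.13). The call for Klf4 was thus at the edge of what 11 fragments could resolve. In library 5-10, fragments of 152 and 151 bases lay at 3486 and 3488 bases past the start. Whether these nearly identical fragments came from 1 molecule was not tested, and the levels and intervals count both.

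Pou5f1, which encodes the POU factor Oct4, is RefSeq gene 18999 at chr17:35506032-35510777 on the plus strand. Its window held 8 fragments from 5 libraries: 2 each from 4-2, 5-4 and 5-6 and 1 each from 4-5 and 5-7. The level was 1.46 (0.631 to 2.88), above that of 65.2% of autosomal protein-coding genes. Libraries named 4 gave 3.07 (0.634 to 8.98) and those named 5 gave 1.11 (0.361 to 2.59). Its window ends in the neighbouring Tcf19, a gene linked to cell growth, which had a level of 1.95 (0.937 to 3.59) over its own, overlapping window. RefSeq lists 7 pseudogenes related to Pou5f1, which held 8 fragments in all, and sharing of reads with them was not tested.

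Sall4 is RefSeq gene 99377 at chr2:168748332-168767201. Its window held 13 fragments from 6 libraries: 5 from 5-2, 3 from 5-10, 2 from 5-7 and 1 each from 5-1, 5-4 and 5-6. The level was 0.969 (0.516 to 1.66), with 38.5% of the fragments from library 5-2, and without that library it was 0.645 (0.279 to 1.27). Libraries named 4 had no fragment, with an upper bound of 1.54, and those named 5 gave 1.18 (0.628 to 2.02). No library named 4 thus added to the Sall4 signal, and the intervals overlapped.

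Prdm14 is RefSeq gene 383491 at chr1:13113428-13127163. Its window held 10 fragments from 6 libraries: 3 from 5-4, 2 each from 5-7 and 5-8 and 1 each from 4-4, 4-5 and 5-6. The level was 0.950 (0.455 to 1.75), and libraries named 4 and named 5 gave 1.07 and 0.925. Both Sall4 and Prdm14 were thus at the autosomal mean within their error, and above 33.7% and 32.4% of autosomal protein-coding genes.

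Klf2, a zinc finger factor close to Klf4 and sensitive to MEK signalling in stem cells, is RefSeq gene 16598 at chr8:72319062-72321654 on the plus strand. Its window held 4 fragments, 1 each from 4-4, 5-3, 5-4 and 5-8. The level was 0.937 (0.255 to 2.40), above that of 31.7% of autosomal protein-coding genes. The few fragments of this short gene leave a range that takes in both a lack and a clear excess of the mark.

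Sox2, the SOX partner of Pou5f1, is RefSeq gene 20674 at chr3:34649995-34652461 on the plus strand, a gene that RefSeq places inside the long noncoding RNA gene Sox2ot. The 1 fragment in its window came from 5-4, the deepest library, and the other 13 libraries had none. The level was 0.238 (0.00603 to 1.33), above that of 4.26% of autosomal protein-coding genes. The autosomal mean would have given 4.20 fragments in a window of this size, so that a lower level than the mean could not be told from the mean over the gene alone.

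The wider stretches around Sox2 held more fragments. The body of Sox2ot, chr3:34560381-34677993, was chosen after the bins were seen. There 39 fragments from 10 libraries gave a level of 0.590 (0.420 to 0.807), wholly below 1. In the Sox2 window with 30 kb on each side, a span chosen after the bins were seen, the level was 0.527 (0.322 to 0.815). Further downstream, from 32.5 to 102.5 kb beyond the gene (chr3:34684962-34754961, also chosen after the bins were seen), 68 fragments from 11 libraries gave 1.73 (1.34 to 2.19). In stretches chosen this way, Sox2 lay where the level was low, with a higher level further on its 3′ side. How often similar stretches elsewhere have such intervals was not computed. Enhancers far downstream of Sox2 serve it in embryonic stem cells, and their positions were not looked up here.

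Few fragments lay within 1 kb of the outermost starts of the 6 members with a known strand. Within 1 kb of the outermost start, Klf4 had 3 fragments, a level of 2.67 (0.550 to 7.80), Nanog and Sox2 had 1 each, and Pou5f1, Klf2 and Esrrb had 0, where 3 fragments would be a level of 2.67. Summed over the 6 starts, 5 fragments gave a level of 0.741 (0.241 to 1.73). RefSeq also gives later starts inside the genes. The one at 35508807 in Pou5f1 had 3 fragments within 1 kb, a level of 2.67 (0.550 to 7.80), and the one at 86421644 in Esrrb had 2, a level of 1.78 (0.215 to 6.42). For the autosomes as a whole, only the first listed start site of each gene was taken. The 7240 sites with 15 or more CG in the 250 bases before them had a level of 0.994 (0.972 to 1.02). The 11324 sites with fewer than 5 CG had 1.21 (1.19 to 1.23), so the mark was lower at starts rich in CG. Klf4, Klf2 and Sox2 belong to the first class and Nanog to the second, and whether base composition moved the counts was not tested.

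**Figure D3:**
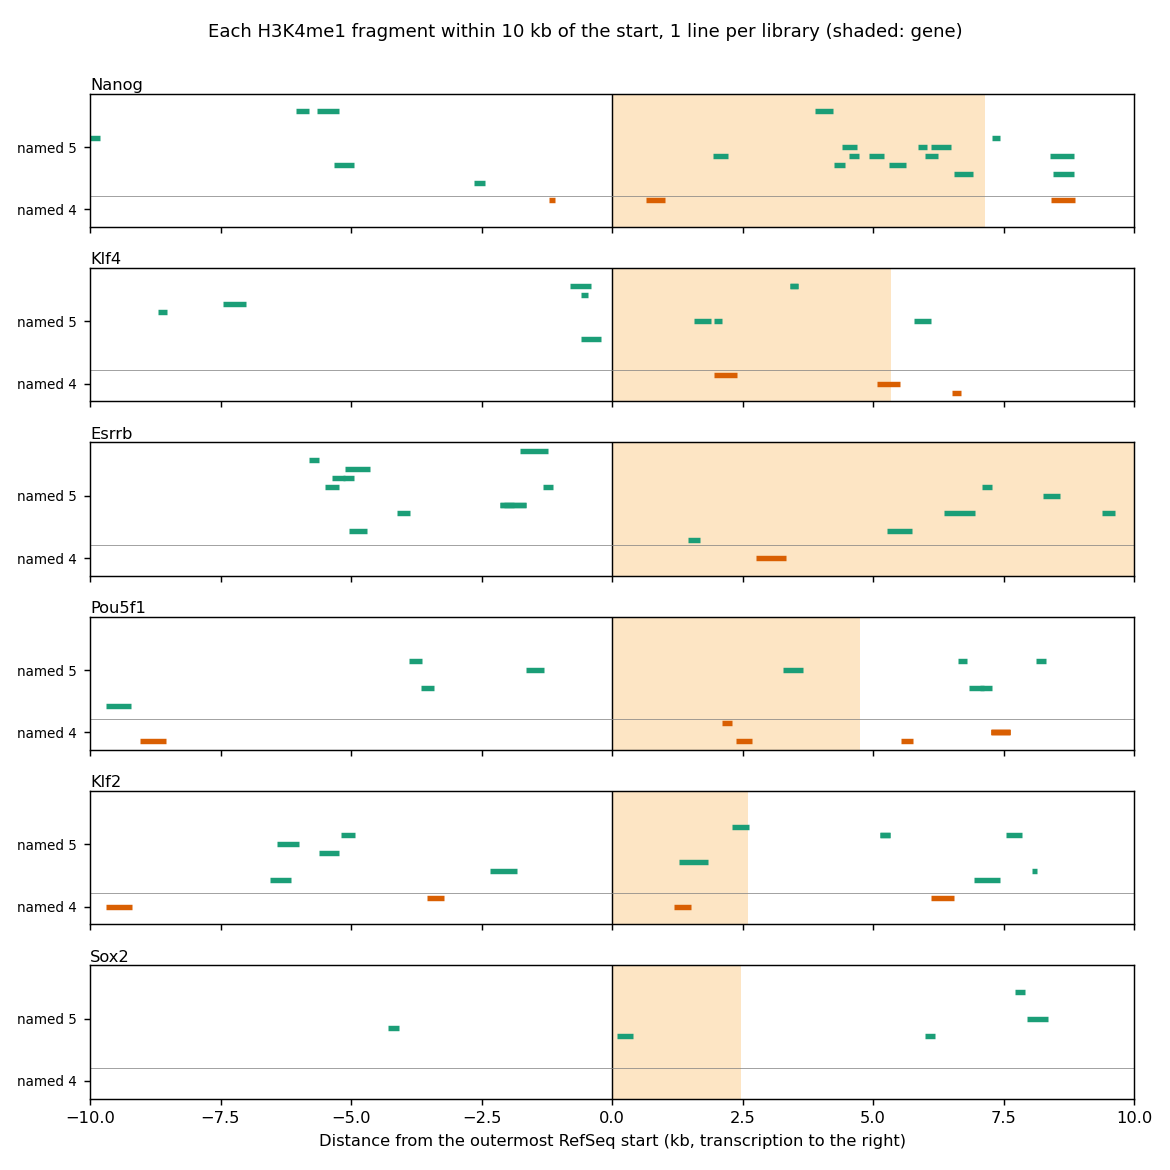
Each H3K4me1 fragment as a bar, 1 line for each library (orange for those named 4, green for those named 5), from 10 kb before to 10 kb after the start of the 6 members with a known strand, in kb from the start along the gene (shaded). Nanog's fragments gather past the start toward the 3′ end of the gene, and within 1 kb of the start Pou5f1, Klf2 and Esrrb have none.

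With 100 kb on each side as the flank, Nanog stood above its own surroundings and the others were not resolved from theirs. The ratio of the Nanog window to its 200 kb of flanks was 1.98 (1.12 to 3.29), an interval above 1, as in 10.4% of autosomal protein-coding genes. With 50 kb on each side as the flank it was 1.69 (0.938 to 2.87), and the interval then included 1. The ratio of Esrrb was 1.23 (0.988 to 1.53), and with 50 kb on each side it was 1.39 (1.05 to 1.85), which lay above 1. The ratio was 1.48 (0.722 to 2.72) for Klf4 and 1.31 (0.555 to 2.67) for Pou5f1. Sall4 had 0.703 (0.366 to 1.24), Prdm14 had 0.632 (0.298 to 1.19), Klf2 had 0.504 (0.136 to 1.31) and Sox2 had 0.221 (0.00556 to 1.26). None of the 8 was wholly below 1, against 6.09% of all genes, and the median ratio over all genes was 1.02.

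The flanks, where enhancers of later stages lie, carried the mark at 6 of the 8 loci at levels with intervals above 1. This was the case for 51.8% of the 200 kb flanks of all autosomal protein-coding genes, and 19.4% had intervals below 1. The flank level was highest at Klf2, with 1.86 (1.62 to 2.13), above 91.5% of autosomal protein-coding genes. Prdm14 followed with 1.5 (1.29 to 1.75), Esrrb with 1.49 (1.27 to 1.73), Sall4 with 1.38 (1.17 to 1.61), Klf4 with 1.28 (1.08 to 1.51) and Nanog with 1.25 (1.06 to 1.48). Pou5f1, with 1.11 (0.926 to 1.33), and Sox2, with 1.08 (0.893 to 1.29), had flanks at the autosomal mean within their error. The median flank level of all genes was 1.22.

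Of the 160 flank bins, 24 (15%) had an interval above 1 and 5 (3.13%) below it. Of the flank bins of all autosomal protein-coding genes, 14.2% were above and 8.05% below, and of all autosomal 10 kb bins, 7.92% were above and 11.6% below. The share of bins above 1 around the members was thus close to that around other genes. Klf2 had 7 such bins, Prdm14 6, Esrrb and Sall4 3 each, Klf4 2, and Nanog, Sox2 and Pou5f1 1 each. Without the Klf2 locus, 17 of 140 bins were above 1 and 4 below.

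**Figure D4:**
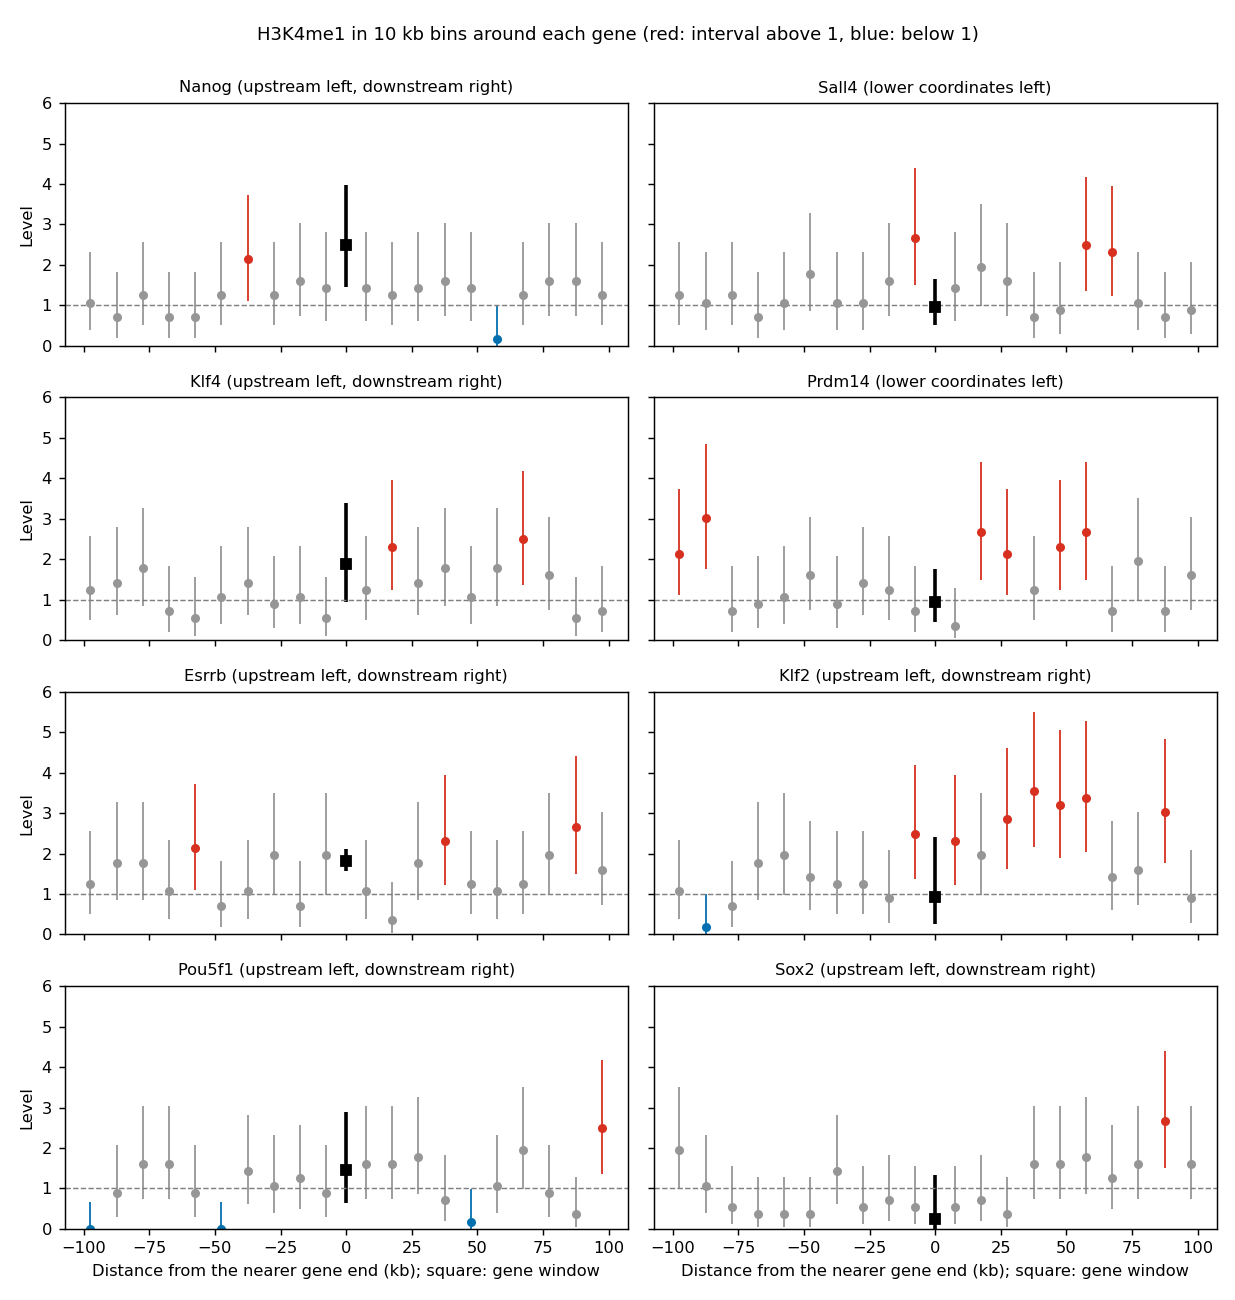
H3K4me1 level with exact 95% interval of each 10 kb bin over 100 kb on either side of the 8 genes, by distance from the gene in kb, in red or blue where the interval lies above or below 1; squares are the gene windows. The highest run of bins lies downstream of Klf2, where 4 bins are above a level of 3.

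The highest bins of the whole set lay downstream of Klf2 in Eps15l1, a neighbouring gene for an endocytosis adaptor. The highest, 32.5 to 42.5 kb beyond Klf2 (chr8:72354155-72364154), held 20 fragments from 8 libraries and had a level of 3.56 (2.17 to 5.50). The 9 bins that touched Eps15l1 had a summed level of 2.43 (2.02 to 2.90), with 5 of 9 above 1, and the other 11 bins of the locus had 1.39 (1.11 to 1.72), with 2 of 11 above 1. Eps15l1 itself had a level of 2.41 (1.99 to 2.89). The downstream side of Klf2, with 2.42 (2.03 to 2.86), and the upstream side, with 1.30 (1.02 to 1.63), had intervals that did not overlap. The sides of the flanks did not overlap at 2 of the 8 loci, Klf2 and Sox2, as at 14.4% of all autosomal protein-coding genes. The gene window, at 0.937 (0.255 to 2.40), lay between bins with levels of 2.49 (1.36 to 4.18) just before it and 2.31 (1.23 to 3.96) just after it. Its interval overlapped both, and the gene body alone had 2.06 (0.425 to 6.02), so a dip over the gene was not resolved.

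On the side of higher coordinates of Prdm14 lies Ncoa2, a nuclear receptor coactivator gene. The 10 bins there, which all touch Ncoa2, had a level of 1.64 (1.32 to 2.01), with 4 above 1, and Ncoa2 as a whole had 1.62 (1.42 to 1.85). The bin nearest to Prdm14 on this side held 2 fragments, a level of 0.356 (0.0431 to 1.29). The 10 bins on the other side had 1.37 (1.08 to 1.71), with 2 above 1, and the intervals of the sides overlapped. The highest bin of the locus was on that side, 82.5 to 92.5 kb from the gene (chr1:13020928-13030927), with 3.03 (1.76 to 4.84), and 47.1% of its fragments came from 1 library.

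Around Sall4 the highest bin lay beside the gene on the side of lower coordinates, 2.5 to 12.5 kb away in the phospholipid flippase gene Atp9a (chr2:168735832-168745831), with 2.67 (1.49 to 4.40). On the other side, the bins at 52.5 to 62.5 kb and 62.5 to 72.5 kb, which touch no protein-coding gene, had 2.49 (1.36 to 4.18) and 2.31 (1.23 to 3.96). Sall4, at 0.969, was lower than each of these 3 bins by level, and its interval overlapped theirs.

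Downstream of Esrrb the bin at 82.5 to 92.5 kb (chr12:86604129-86614128), which touches no protein-coding gene, had 2.67 (1.49 to 4.40). Downstream of Klf4, in a stretch with no protein-coding gene, the bins at 12.5 to 22.5 kb and 62.5 to 72.5 kb (chr4:55454637-55464636) had 2.31 (1.23 to 3.96) and 2.49 (1.36 to 4.18). Upstream of Nanog the bin at 32.5 to 42.5 kb (chr6:122664989-122674988), which touches no protein-coding gene and lies between Dppa3 and Nanog, had 2.14 (1.10 to 3.73). These 4 bins each held fragments from 6 or 7 libraries.

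The Sox2 flank differed by side. Downstream it had 1.37 (1.08 to 1.71) and upstream 0.783 (0.569 to 1.05), which did not overlap, and the highest bin, 82.5 to 92.5 kb downstream (chr3:34734962-34744961), had 2.67 (1.49 to 4.40) with 46.7% of its fragments from 1 library. Pou5f1 had 3 of the 5 bins below 1. Upstream of it the bins at 42.5 to 52.5 kb and 92.5 to 102.5 kb held no fragment, where 3 fragments would be a level of 0.534, and 14 fragments 92.5 to 102.5 kb downstream (chr17:35603278-35613277) gave its highest bin, 2.49 (1.36 to 4.18). The upstream flank holds genes of the H2-Q family of class I histocompatibility genes, which are close copies, and loss of reads there to multiple mapping was not tested.

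Over the 6 genes with a known strand, the downstream side of the flanks had a level of 1.56 (1.43 to 1.70) and the upstream side 1.13 (1.02 to 1.25), and these did not overlap. Without Klf2 they were 1.39 (1.26 to 1.54) and 1.09 (0.974 to 1.22), again without overlap. These summed intervals leave out the spread between loci. Gene by gene, the downstream level was higher at each, but the sides failed to overlap only at Klf2 and Sox2. At Nanog they were close, 1.30 downstream and 1.21 upstream, as at Esrrb, 1.53 and 1.44. The same sums were not made over all genes, so a general difference between the sides was not tested. Bins that touched a protein-coding gene had 1.54 (1.41 to 1.68), with 10 of 58 above 1, and bins that touched none had 1.27 (1.18 to 1.37), with 14 of 102 above 1. Without the Klf2 locus, an alternative added after the values were seen, they had 1.38 (1.24 to 1.53), with 5 of 45 above 1, and 1.26 (1.17 to 1.36), with 12 of 95 above 1, and these overlapped. The 20 kb nearest the genes had 1.35 (1.18 to 1.53) and the further 80 kb had 1.38 (1.29 to 1.46), and these overlapped.

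Single zygotes rarely had fragments at all of the members. Of the 112 pairs of library and member, 50 had at least 1 fragment, and only library 5-4 had 1 in all 8 genes. Windows and flanks together, called a locus, gave more fragments. By level alone, the Esrrb locus was above 1 in 12 of the 13 deeper libraries, and its interval was above 1 in 8. Its lowest level was 0.898 in 5-2 and its highest 2.51 in 5-1. The Nanog locus was above 1 by level in 11 of 13, but by interval in only 2. The Pou5f1 locus was above 1 by level in 4 of 13, with intervals above 1 in 3 and below 1 in 2. It ran from 0.190 in 5-1 to 3.57 in 4-2. Such counts were not made for the loci of other genes. At Prdm14 the highest library, 5-8, had 4.24 and the median was 1.34.

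The libraries named 4 and those named 5 had intervals without overlap at 2 of the 8 loci, as at 9.92% of the loci of all autosomal protein-coding genes. In both, the libraries named 4 were higher, as at 5.82% of all loci. At Pou5f1 the libraries named 4 gave a level of 2.14 (1.56 to 2.87) against 0.908 (0.729 to 1.12) for those named 5, and at Klf2 they gave 2.74 (2.08 to 3.55) against 1.63 (1.38 to 1.90). At each locus 1 of the 3 libraries named 4 was low. At Pou5f1 the level was 3.57 in 4-2 and 2.44 in 4-5 but 0.587 in 4-4, and at Klf2 it was 3.41 in both 4-4 and 4-5 but 0.901 in 4-2. What the numbers in the library names stand for is not stated. With 3 libraries named 4, whether these differences come with the mouse, the plate or single zygotes cannot be told apart.

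Among other genes of the network, levels were spread as widely as among the members. Of 47 genes in 4 lists of related genes, 15 had an interval above 1 and 2 below it, with a median level of 1.30. Over all autosomal protein-coding genes 29.5% were above 1 and 7.17% below, with a median of 1.21, so the share of the 47 genes above 1 was near that of other genes. The lists were not tested against these shares, and with 15 genes or fewer each their counts are a description. For targets and outputs of the network, 5 of 10 were above 1 and none below, with a median of 1.55, beside 29.5% above 1 among all genes. Among all genes with windows up to 30 kb it was 23.1%, a class to which Fbxo15, 1 of the 5, does not belong. Lefty1 and Lefty2, also among the 5, lie close together on chromosome 1 (180935022-180938401 and 180893108-180899107). They are thus not separate regions, and sharing of reads between them was not tested. The highest were Utf1, a chromatin factor bound by Pou5f1 and Sox2 at its enhancer in stem cells, with 12 fragments from 8 libraries and a level of 3.41 (1.76 to 5.96), and Lefty1, a Nodal inhibitor, with 2.97 (1.63 to 4.99). The lowest were L1td1, an RNA-binding protein gene, with 1.17 (0.584 to 2.09) and Gdf3, a TGF-beta family ligand gene upstream of Nanog, with 1.29 (0.517 to 2.65).

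Of 15 other genes of the naive network, 3 were above 1 and none below, with a median of 1.30. Dppa4, a chromatin factor of early embryos, had 2.29 (1.40 to 3.53), and Mybl2, a cell cycle factor, had 1.86 (1.31 to 2.57). Nr0b1, a nuclear receptor gene on the X chromosome, had 0.388 (0.0470 to 1.40), where the X as a whole had a level of 0.554. Dppa5a, an RNA-binding protein gene, had no fragment, where 3 would be a level of 0.868.

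Of 12 genes of LIF, BMP and FGF signalling, 3 were above 1 and 2 below, with a median of 1.20. Lif, the cytokine that sustains mouse stem cells, had 2.41 (1.59 to 3.50) and Stat3, which carries its signal to the nucleus, had 1.88 (1.44 to 2.41). Its receptor gene Lifr was below 1, with 0.716 (0.522 to 0.958). Id3, a target of BMP signalling, had no fragment (upper bound 0.999), where 3 would be a level of 0.812, and Bmp4 had 0.293 (0.0355 to 1.06).

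Of 10 genes of the formative and primed states, which follow naive pluripotency at implantation, 4 were above 1 and none below, with a median of 1.10. Dnmt3a, a de novo DNA methyltransferase, had 2.31 (1.96 to 2.71) and its cofactor Dnmt3l had 1.96 (1.31 to 2.81). Both are also used in the oocyte. Pou3f1, a POU factor of the primed state, had 0.444 (0.0538 to 1.61).

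**Figure D5:**
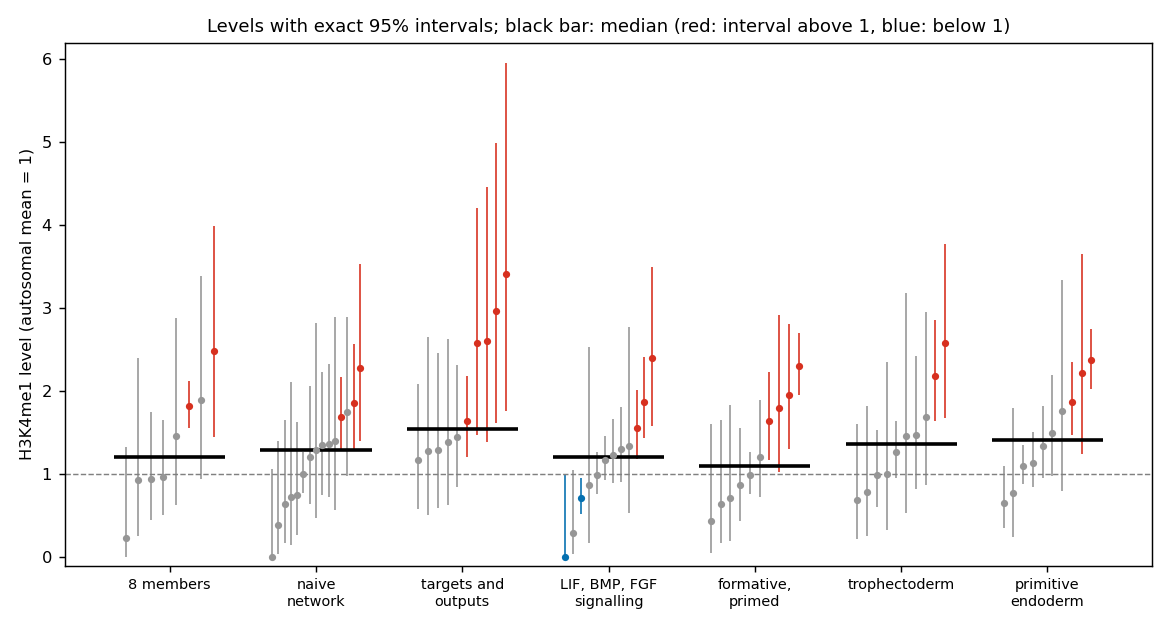
H3K4me1 level with exact 95% interval of each gene (points and lines; red above 1, blue below 1) in the 8 members, 4 lists of related network genes, and the factors of trophectoderm and primitive endoderm, with the list median as a bar. Each list spans the autosomal mean of 1 except the targets and outputs, whose lowest gene has 1.17.

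The factors of the other blastocyst lineages are given beside the same 29.5% above 1 among all genes, and no list was tested against another. Of 10 trophectoderm factors 2 had an interval above 1, with a median of 1.37, and of 10 primitive endoderm factors 3 did, with a median of 1.42. The highest were Tfap2c with 2.58 (1.68 to 3.78) and Elf5 with 2.19 (1.64 to 2.86) for trophectoderm, and the basement membrane gene Lama1 with 2.37 (2.03 to 2.75) and Sox7 with 2.22 (1.24 to 3.66) for primitive endoderm. The lowest were Eomes with 0.687 (0.223 to 1.60) and Cdx2 with 0.784 (0.255 to 1.83), and Gata6 with 0.653 (0.357 to 1.10) and Sox17 with 0.774 (0.251 to 1.81). These 4 low genes, all regulators of their lineage, had intervals that included 1, as that of Sox2 did.

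Fragment length is a readout that the levels do not use. Of all fragments 7.95% (7.91 to 8.0, exact Clopper-Pearson interval) were shorter than the DNA on a nucleosome core. At the Nanog locus the share was 13.9% (8.94 to 20.3), or 22 of 158 fragments, and this interval lay above that of all fragments. In the Nanog window alone it was 5.88% (0.149 to 28.7), or 1 of 17 fragments, so the short fragments lay mostly in the flanks. How many loci of other genes have such an interval was not computed. At the other 7 loci the share ran from 7.52% at Pou5f1 to 9.03% at Klf4, with intervals that included the share of all fragments. No pair of ends was shared by different libraries among the 1465 fragments at the 8 loci, and the 2 left-out libraries, with 740 fragments, had none in the windows of the members.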

How the data were processed

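The deposited table listed 1 H3K4me1 CUT&Tag fragment per line with its library, and the authors' last column, a count of 1 in all lines, held no read numbers, so fragment counts per region were made here. The build was mm10, per the submitters' processing notes. The sources used here give no aligner, duplicate removal or filter. Pooled were the libraries of 5000 or more fragments on the autosomes, X and Y, and fragments were placed by midpoint. Fragments of 1 library with nearly the same ends were each counted. Both batches share 1 table, so no test was made between samples. Intervals were exact, Poisson for levels, conditional binomial for ratios and Clopper-Pearson for shares (Python 3.11.15, SciPy 1.17.1), and the scripts were tested on simulated data. Gene positions, strands and promoters came from RefSeq for GRCm38.p6, whose promoter table held neither Sall4 nor Prdm14.

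Members and lists were chosen with earlier results of these data known. Named besides the members were the 2 highest and 2 lowest genes of each list, coding genes in a member window, and the highest flank bin of each locus with its genes. The genes most like Esrrb across libraries and 1 low gene of a list are not reported here. Other bins, segments, the motif and CG searches and neighbours were chosen after their values were seen. Oocyte and cumulus markers were also measured. Alternatives covered the window, the reference, the libraries, fragment placing and bin size.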

Additional observations from a re-analysis of the deposited data

How the results depend on the processing

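Depth limits these results: 7 of the 8 windows held 1 to 17 fragments, and the libraries named 4 gave 252571 fragments in all. Of 216 recomputed member levels, 212 stayed within the main interval, a weak check where intervals are wide, and 4 lay outside it. The 4 were Pou5f1 (3.07), Sox2 (0) and Sall4 (0) in libraries named 4 alone, and Sox2 without library 5-4 (0). Only Nanog and Esrrb had a call that could cross to the other side of 1, and their levels stayed above 1. Nanog's interval included 1 without library 5-5 (0.982 to 3.32) and in libraries named 4 alone (0.508 to 7.20). That of Klf4 lay above 1 in some settings. The median member level of 1.22 became 1.47 over gene bodies alone, 1.62 in libraries named 4 alone, where 1 member (Esrrb) had an interval above 1, and 0.969 without Esrrb, an alternative added after the data were seen. Leaving out each library in turn gave medians of 1.08 to 1.31, 2 to 3 members above 1, 0 below 1, 23 to 32 flank bins above 1 and 2 to 5 below. Without library 5-5 the 2 members above 1 were Klf4 and Esrrb. Bins of 5 kb gave 50 of 320 above 1 and 0 below, and bins of 20 kb gave 20 of 80 above and 1 below. A 5 kb bin with no fragment cannot have an interval below 1 at this depth. No paired analysis was possible because the table pools both batches and its libraries carry no replicate number.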

Other observations

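Markers of the cells that the samples could also hold were described by the mark alone, since H3K4me1 over a gene is not its transcript. Of 8 oocyte markers, 4 had an interval above 1 and none below, with a median level of 1.88, beside 29.5% above 1, 7.17% below and a median of 1.21 over all autosomal protein-coding genes. Of 8 markers of cumulus cells, which surround the egg, 3 had an interval above 1 and 2 below, with a median of 1.09. What share of the fragments came from other cells was not tested.

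Of the neighbours of Nanog, Dppa3, a maternal factor that protects DNA methylation in the zygote, had a level of 1.41 (0.566 to 2.90) and Slc2a3, a glucose transporter gene, had 1.32 (1.00 to 1.70). Beside Pou5f1, the class I histocompatibility gene H2-Q7 had 2.22 (1.15 to 3.87) and Cdsn, a gene of the skin barrier, had 0.373 (0.102 to 0.955). Beside Klf2, the clathrin adaptor gene Ap1m1 had 1.83 (1.16 to 2.74), and beside Esrrb, Gpatch2l had 1.48 (1.09 to 1.96). The long noncoding RNA gene Gm12506, which starts beside Klf4, had 1.10 (0.857 to 1.39).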
